A study of Rattus norvegicus with 31 samples.

Results

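The comparison described here sets testes of irradiated rats given hormone ablation together with estradiol against testes of irradiated rats given sham treatment. Its members are the 6 arrays titled with all 3 agents (a GnRH antagonist, an antiandrogen and estradiol) and the 14 arrays titled as sham, 20 of the 31 arrays in the study. All animals were LBNF1 rats aged 25 to 27 weeks irradiated with 6 Gy over the lower abdomen, so the controls carry the irradiation too. The remaining 11 arrays came from irradiated rats given a GnRH antagonist with the antiandrogen flutamide, without estradiol, and they are used only where a level needs to be placed against ablation alone. Each array held total RNA of testis, which mixes all its cell types, and the labels call every array a biological replicate without saying whether RNA of several animals was pooled.

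A testis makes sperm in tubules lined by Sertoli cells, which nurse the germ cells, while Leydig cells between the tubules make testosterone under luteinising hormone. After irradiation of the rat testis, surviving spermatogonia can stay in the tubules without differentiating, and suppression of gonadotropins and of androgen action is known to relieve this block. Estradiol lowers gonadotropin release through the pituitary and also acts on estrogen receptors in the testis itself. The design asks where the irradiated testis stands, gene by gene, once all 3 agents have been given.

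Several labels bear on how the comparison can be read. The titles of the 6 arrays speak of supplementation with follicle-stimulating hormone while listing only the 3 agents, and doses and treatment times are not given in the sources used here. Of the 14 sham arrays, 10 carry a description as control testes and 4 as irradiated testes, although all are titled irradiated. The 6 arrays with estradiol were added to 25 arrays of an earlier series, so the treatment and the deposit cannot be told apart. Array medians of the deposited log2 signals lay between -1.44 and -1.24, and the first principal component held 16.1% of the variance. On the second, arrays 1 and 5 of the combined treatment had the highest scores (48.3 and 34.7). Sham arrays 3, 7 and 4 lay at its other end (-43.7, -40.5 and -39.3). Signals are given throughout on the deposited scale, read as log2, and changes are the combined treatment minus sham.

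The 3 lowest changes above background were in the Leydig cell genes Insl3, Ces1d and Cyp17a1. The upstream stretches of 3 genes are shown because they place Insl3 and Defb24, which fell, beside Lhcgr, a Leydig cell gene that did not fall. They are the 250 bases before the RefSeq start on GRCr8, written 5′ to 3′ along the gene: chr16:18432939-18433188 on the plus strand for Insl3, chr3:161512984-161513233 on the minus strand for Defb24 and chr6:11415165-11415414 on the plus strand for Lhcgr. Capitals mark AGGTCA or its reverse complement TGACCT, the hexamer that many nuclear receptors recognise.
Insl3: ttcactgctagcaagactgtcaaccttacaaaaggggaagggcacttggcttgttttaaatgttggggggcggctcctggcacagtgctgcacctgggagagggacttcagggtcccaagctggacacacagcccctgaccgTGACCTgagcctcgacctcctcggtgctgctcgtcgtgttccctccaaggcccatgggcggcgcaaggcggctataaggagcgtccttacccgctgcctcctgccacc
Defb24: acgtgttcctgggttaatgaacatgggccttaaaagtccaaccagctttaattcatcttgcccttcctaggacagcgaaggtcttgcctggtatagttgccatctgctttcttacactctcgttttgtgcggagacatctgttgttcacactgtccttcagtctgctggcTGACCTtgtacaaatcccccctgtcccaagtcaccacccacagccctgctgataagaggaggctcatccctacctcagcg
Lhcgr: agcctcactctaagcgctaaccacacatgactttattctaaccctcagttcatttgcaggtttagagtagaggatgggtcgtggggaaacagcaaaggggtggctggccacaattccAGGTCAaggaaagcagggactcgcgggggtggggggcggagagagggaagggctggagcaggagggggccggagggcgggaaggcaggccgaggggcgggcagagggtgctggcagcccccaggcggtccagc
The hexamer lay 108 bases before the start of Insl3, 80 before that of Defb24 and 133 before that of Lhcgr, and there was 1 match in each. Of all 33469 promoters given, 14.1% held it on either strand within these 250 bases, and of the 9458 genes tested here with an entry, 10.6%. Among the 12 genes with the lowest changes 10 had an entry and 2 of them held it, which are Insl3 and Defb24. Among the 12 with the highest changes, 9 had an entry and 0 held it. A match describes letters only, and the promoters shown were chosen because they hold it.

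Insl3, a peptide hormone secreted by Leydig cells, ran from 3.48 to 4.99 in the sham arrays with a median of 4.36. With the combined treatment it ran from -3.82 to -1.45 with a median of -1.85, far below every sham array. Its change was -6.37 ± 0.22 (SE, 6 against 14 arrays), an 82.7-fold lower signal (adjusted p = 2.06e-22). Part of that size lies under the 40th percentile of each array, the level used to filter dim probe sets, and -6.01 of the change remained once dimmer values were set to that level.

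Among the enzymes of androgen synthesis some were lower, and Hsd3b1 was higher by a call that was lost under several other settings. Cyp17a1, which carries out the 17-hydroxylation needed for androgens, lay between 3.99 and 5.22 in sham testes and between 0.39 and 0.91 after the combined treatment, a change of -4.06 ± 0.14 (16.7-fold lower). Cyp11a1, which cuts the cholesterol side chain in the first step of steroid synthesis, went from 1.54 to 2.69 in sham arrays to -0.60 to -0.21, a change of -2.47 ± 0.13. In both genes the 6 arrays lay below every sham array, as in 2.87% of all genes. Both were named with results of these arrays known, so their separation is no added evidence. Hsd17b3, which makes testosterone from androstenedione, changed by -1.17 ± 0.28. It lost its call when only the 4 sham arrays with a description as irradiated were used, though the change there was -1.30 (adjusted p = 0.0576). Hsd3b1, a steroid dehydrogenase of the same pathway, was at 4.44 to 5.69 against 3.80 to 5.22, a change of 0.48 ± 0.16 (adjusted p = 0.0390) with overlapping arrays. Its call was lost without array 2, 3, 4 or 6 of the combined treatment or without sham array 1, 9 or 13 (adjusted p between 0.0509 and 0.141).

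Scarb1, Tspo and Star, also listed for steroid synthesis, were lower as well. Scarb1, the lipoprotein receptor that takes up cholesterol, changed by -1.74 ± 0.16 and Tspo, a protein of the outer mitochondrial membrane, by -1.57 ± 0.10. Star, which carries cholesterol into mitochondria, changed less, by -0.75 ± 0.17, from a sham range of 0.93 to 2.73 to a range of 0.38 to 1.46. Another probe set gave -1.26. The groups overlapped, and with the replicate number as a block its change was -0.47 (adjusted p = 0.0735). Over the 14 tested genes of steroid synthesis 7 were lower and 2 higher, with a median change of -0.44. Of all 11387 genes tested 11.9% were lower, 5.28% were higher, 17.2% were called in either direction and the median was -0.0294. The counts of every list below are to be read against these shares. The lists were chosen with earlier results of these data known.

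**Figure D1:**
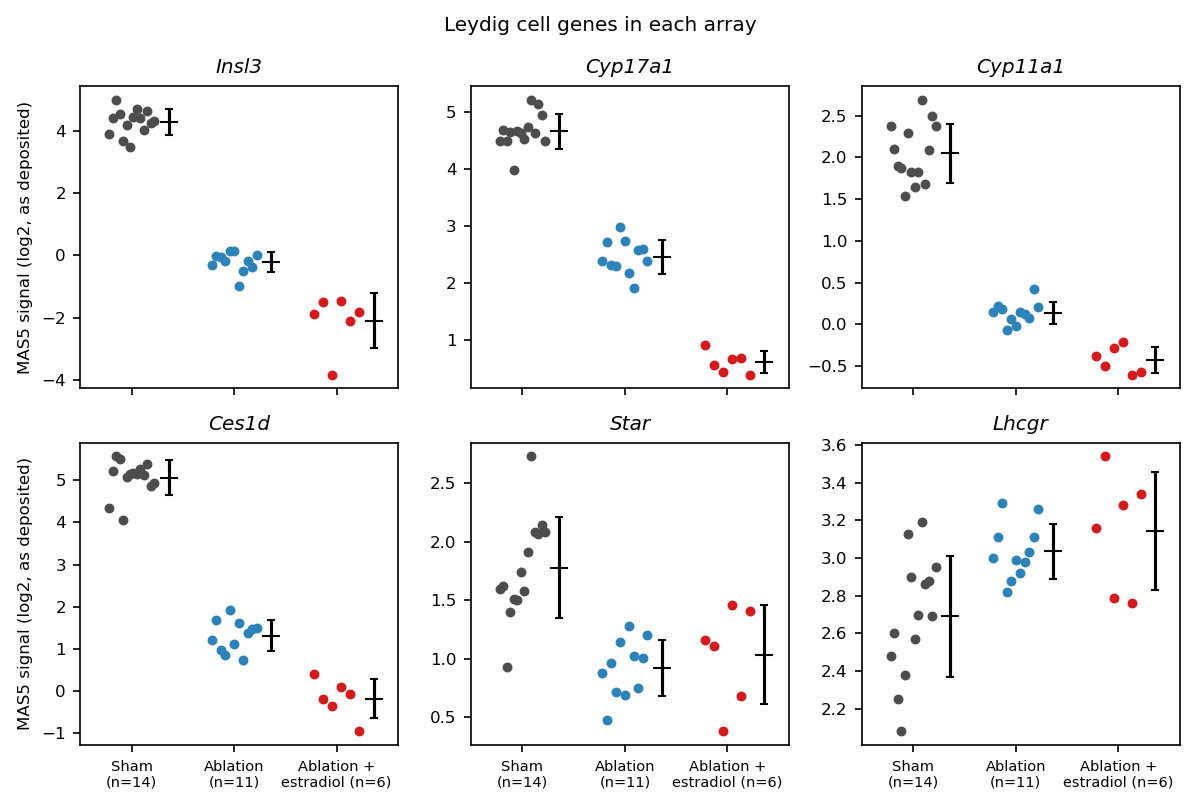
Signals (log2, as deposited) of 6 Leydig cell genes in each array of sham (n = 14), ablation (n = 11) and ablation with estradiol (n = 6), with black marks at the mean ± SD. Insl3, Cyp17a1, Cyp11a1 and Ces1d lie below every sham array in the combined treatment, while Star and Lhcgr overlap with sham.

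Several markers of Leydig cells not tied to steroid synthesis were lower. Ces1d, a carboxylesterase, lay between 4.07 and 5.57 in sham arrays and between -0.96 and 0.40 after the combined treatment, a change of -5.24 ± 0.18 (37.9-fold lower). Adh1c, an alcohol dehydrogenase, changed by -3.13 ± 0.12 and Nat8f5, an acetyltransferase family member, by -3.31 ± 0.18. Hsd11b1, which interconverts active and inactive glucocorticoids, changed by -1.91 ± 0.13. Vcam1, an adhesion molecule, changed by -1.32 ± 0.11 and Pdgfra, a growth factor receptor of interstitial cells, by -0.86 ± 0.12.

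Other Leydig cell genes did not fall. Lhcgr, the receptor for luteinising hormone, was 1.37-fold higher (0.46 ± 0.13, adjusted p = 0.0125), at 2.76 to 3.54 against 2.08 to 3.19 in sham arrays. That call was lost without array 2 of the combined treatment (0.38, adjusted p = 0.0596), with only the irradiated-described sham arrays (0.30, adjusted p = 0.208) and with the mean of its probe sets (0.36, adjusted p = 0.135). Nr5a1, the nuclear receptor that drives steroidogenic genes, changed by 0.16 ± 0.15 (adjusted p = 0.570) and Nr2f2, a nuclear receptor of interstitial cells, by -0.04 ± 0.14 (adjusted p = 0.905). Of 18 tested Leydig cell markers 12 were lower, 2 higher (1 when any 1 of 12 arrays was left out) and 4 not called, with a median of -0.89 that ranged from -1.01 to -0.65 over 35 alternatives. In such tissue fewer cells of a type and less RNA per cell cannot be told apart.

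Most of the cholesterol pathway genes tested were lower. Of 19 tested, 14 were lower and 0 higher, with a median of -0.72. Tm7sf2, a sterol reductase, changed by -2.33 ± 0.26 (-1.47 above the filter level) and Sqle, squalene epoxidase, by -2.14 ± 0.35 (-1.37 above it). Cyp51, lanosterol demethylase, ran from 0.54 to 1.05 against 1.80 to 2.41 in sham arrays, a change of -1.33 ± 0.11, and Acat2, which joins acetyl-CoA units early in the pathway, changed by -1.11 ± 0.11. Insig1, a regulator of the pathway's transcription factor, changed by -0.72 ± 0.11, whereas Srebf2, that factor itself, changed by 0.15 ± 0.11 (adjusted p = 0.417). Among 20 genes of fatty acids and lipid droplets 7 were lower and 0 higher. Fads1, a fatty acid desaturase, was the lowest of them at -2.60 ± 0.13, with arrays at 0.60 to 1.42 against 3.12 to 4.19, followed by the fatty acid transporter Cd36 at -2.06 ± 0.18.

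Over all genes, losses outnumbered gains under the deposited scaling. With limma 1956 genes were called, 601 higher and 1355 lower, so 30.7% of the calls were higher. This split depended on scaling: 50.1% were higher after quantile normalization (1202 against 1198) and 38.8% once array medians were set equal (749 against 1181). Against only the 4 sham arrays described as irradiated, 1181 genes were called and 21.4% were higher. Without array 1 of the combined treatment 424 were higher and 1417 lower. At least 4-fold changes were seen in 44 called genes that were lower and 8 that were higher, and once dimmer values were set to the filter level in 25 and 2.

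**Figure D2:**
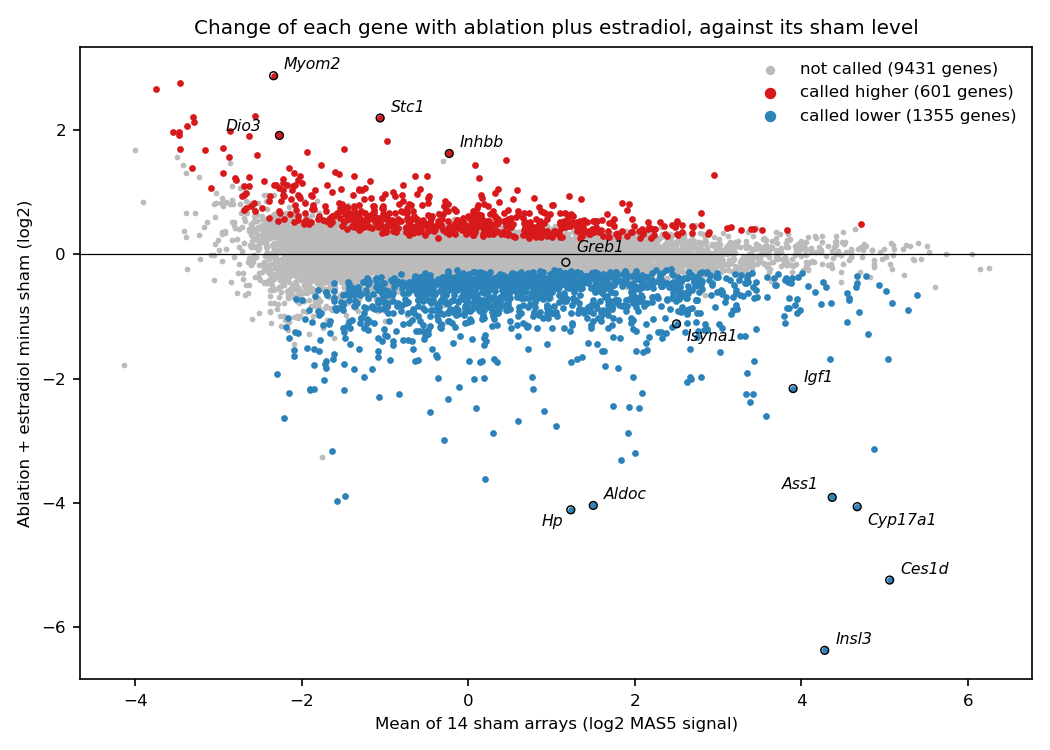
Change of each of 11387 genes (log2, ablation with estradiol minus sham) against its mean signal in the 14 sham arrays, with called genes in colour and 13 genes named. Insl3, Ces1d, Cyp17a1 and Ass1 combine a high sham signal with a change of -3.91 or lower, while the highest changes lie at low sham signals.

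Of the 12 genes with the lowest changes above the filter level, several belong to no Leydig cell list. Ass1, argininosuccinate synthase of the urea cycle, changed by -3.91 ± 0.13, and its 6 arrays at 0.14 to 0.77 lay below every sham array. Defb24, a beta-defensin, changed by -3.20 ± 0.16, with arrays at -1.66 to -0.87 against a sham mean of 2.00 ± 0.20 (SD, n = 14). Hp, the haemoglobin-binding protein haptoglobin, changed by -4.11 ± 0.31 (-2.97 above the filter level) and Aldoc, an aldolase of glycolysis, by -4.04 ± 0.27 (-3.15 above it). Slc7a11, the cystine transporter, changed by -2.88 ± 0.13 and Ces1c, another carboxylesterase, by -2.76 ± 0.18. In all 12 genes the 6 arrays lay below every sham array, which 2.87% of all genes did, and 3.71% of all genes had groups that did not overlap in either direction. These 12 were picked by their changes in the same arrays, so their separation is no added evidence.

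The 12 genes with the highest changes had smaller effects. Myom2, a protein of the sarcomere M-band, ran from 0.20 to 0.97 after the combined treatment against a sham mean of -2.34 ± 0.42 (SD, n = 14), a change of 2.87 ± 0.18 (2.36 above the filter level). Stc1, the secreted glycoprotein stanniocalcin, changed by 2.19 ± 0.14, with arrays at 0.40 to 1.57. Aspn, the matrix proteoglycan asporin, changed by 2.23 ± 0.21 (1.52 above the filter level), Stmn1, a microtubule regulator, by 1.51 ± 0.13 and Ccn2, a growth factor of connective tissue, by 1.43 ± 0.13. In 10 of the 12 the arrays lay above every sham array, which 0.834% of all genes did. These 12 too were picked by their changes in the same arrays, so that count is no added evidence either.

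Set against ablation alone, some of these extremes lay farther out and others did not. In that comparison 3.46% of all genes were called, 0.729% higher and 2.73% lower. Of the 12 lowest genes 8 were also lower than with ablation alone, and of the 12 highest 4 were also higher, although both sets were chosen with the same 6 arrays. Insl3 lay at -0.98 to 0.14 in the 11 ablation arrays, and the combined treatment was lower by -1.88 ± 0.23 (adjusted p = 1.16e-06). Cyp17a1 lay at 1.92 to 2.99 there, a difference of -1.85 ± 0.14 (adjusted p = 2.89e-11). The ablation arrays thus stood between sham and the combined treatment for both genes. Adh1c differed from ablation alone by -0.08 (adjusted p = 0.808), Nat8f5 by -0.14 (adjusted p = 0.773) and Slc7a11 by -0.02 (adjusted p = 0.957).

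Among genes that estrogen is known to induce, Greb1 stood near its sham level. Greb1, a coactivator of the estrogen receptor, ran from 0.40 to 2.44 in sham arrays with a median of 1.21, and from 0.35 to 1.52 with a median of 1.07 after the combined treatment. The difference of -0.13 ± 0.25 had a 95% interval of -0.64 to 0.39 (adjusted p = 0.815), and its sign turned without array 5 of the combined treatment (0.01). In the ablation arrays Greb1 ran from -3.14 to -1.17, so the combined treatment was 7.86-fold higher than ablation alone (adjusted p = 1.1e-09). Myc, a transcription factor for growth genes, differed from sham by 0.13 ± 0.14 (95% interval -0.16 to 0.41) and from ablation alone by 0.92 ± 0.15 (adjusted p = 6.4e-05).

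Igf1 and Isyna1 lay between ablation alone and sham. Igf1, insulin-like growth factor 1, ran from 3.53 to 4.45 in sham arrays and from 1.39 to 2.31 after the combined treatment, a change of -2.16 ± 0.13, and it was 1.42-fold above ablation alone (adjusted p = 0.0134). Isyna1, which makes inositol phosphate from glucose phosphate, ran from 2.16 to 2.86 in sham arrays, from -0.97 to -0.05 with ablation and from 1.10 to 1.74 with the combined treatment. It was 2.18-fold below sham (-1.12 ± 0.12) and 3.93-fold above ablation alone. The 3 groups of Isyna1 did not overlap.

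Dio3 and Myh6 had means outside those of sham and ablation. Dio3, the deiodinase that inactivates thyroid hormone, ran from -0.56 to -0.07 against -3.43 to -1.85 in sham arrays, a change of 1.91 ± 0.20 (1.49 above the filter level). It was 2.91-fold above ablation alone, where it ran from -2.54 to -1.44. Myh6, a myosin heavy chain of heart muscle, ran from 1.61 to 3.02 with ablation and from -0.74 to 0.18 with the combined treatment. It was 1.56-fold below sham (-0.64 ± 0.16, adjusted p = 0.00452). With only the irradiated-described sham arrays its change was again -0.64 but not called (adjusted p = 0.0962). Of 16 tested estrogen-responsive genes 6 were lower than sham and 1 higher (0 higher when any 1 of 10 arrays was left out), with a median of -0.18.

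**Figure D3:**
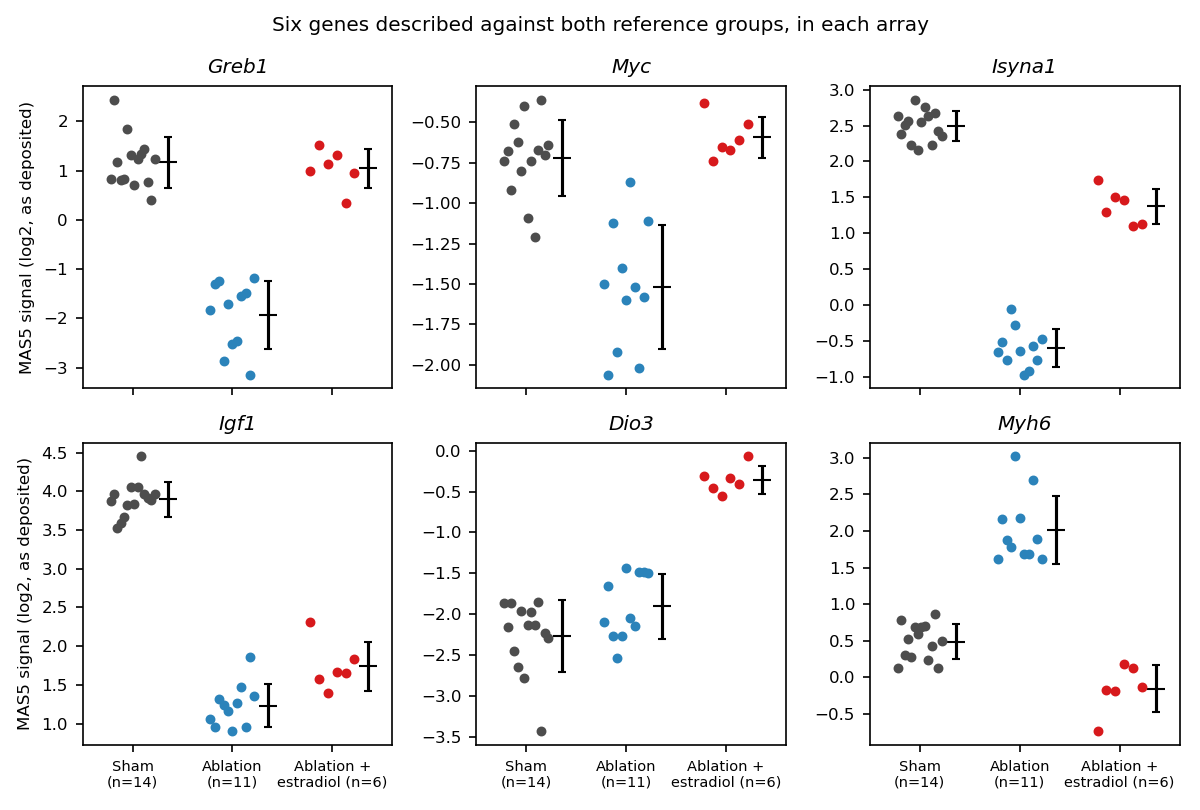
Signals (log2, as deposited) of 6 genes in each array of sham (n = 14), ablation (n = 11) and ablation with estradiol (n = 6), with black marks at the mean ± SD. Greb1 and Myc of the combined treatment overlap with sham, Isyna1 and the mean of Igf1 lie between the other groups, and Dio3 lies above and the mean of Myh6 below both.

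Markers of Sertoli cells went both ways. Among the 14 tested, 5 were higher and 3 lower, with a median of 0.17, but 3 were higher without array 6 of the combined treatment and 1 was lower without array 5. Wt1, a transcription factor that maintains Sertoli cells, changed by 0.17 ± 0.12 (adjusted p = 0.369), and was called after quantile normalization (0.29, adjusted p = 0.00694). Clu, the secreted protein clusterin, changed by 0.01 ± 0.19. Dmrt1, a transcription factor of Sertoli cells and spermatogonia, was higher by 0.93 ± 0.13, at -0.50 to 0.50 against -1.32 to -0.49. It also exceeded ablation alone by 0.65 (adjusted p = 0.0019). Among 10 barrier junction genes 1 was higher and 1 lower, with a median of 0.06, while 17.2% of all genes tested were called. Ocln was higher (0.47 ± 0.12). Gja1, a gap junction protein, was lower (-0.72 ± 0.15, with other probe sets at -0.70 to -0.09, none called). The call of Ocln was lost with only the irradiated-described sham arrays (0.32, adjusted p = 0.166), which left 0 higher.

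Of 7 androgen-responsive genes of Sertoli cells 5 were lower and 0 higher, with a median of -0.95, while 11.9% of all genes tested were lower. Tubb3, a tubulin, changed by -1.98 ± 0.13 on the probe set used, while another probe set of the gene gave -0.15. Fkbp5, a chaperone of steroid receptors, ran from 0.12 to 0.74 against 1.22 to 1.76, a change of -0.95 ± 0.09, while another probe set gave -0.36 and was not called. Of 14 genes known to answer follicle-stimulating hormone 5 were higher and 0 lower, with a median of 0.23. The share of all genes tested that were higher was 5.28%. Inhbb, the inhibin beta B subunit, ran from 1.06 to 1.67 against -0.71 to 0.20, a change of 1.62 ± 0.14, and Inha, the shared alpha subunit, from 2.37 to 2.91 against 1.44 to 2.33, a change of 0.81 ± 0.12. Both subunits lay above every sham array, as 0.834% of all genes did. They were named with results of these arrays known, so their separation is no added evidence. Neither subunit passed the test against ablation alone (0.13, adjusted p = 0.716, and 0.39, adjusted p = 0.0577). Id1, an inhibitor of differentiation factors, was 1.86-fold above sham and 2.03-fold above ablation alone (adjusted p = 5.51e-05).

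Genes of undifferentiated spermatogonia were higher after the combined treatment. Of 10 tested, 6 were higher and 0 lower, with a median of 0.58, while 5.28% of all genes tested were higher. Sox3, a transcription factor of progenitor spermatogonia, ran from -0.68 to 0.41 against -2.36 to -1.43 in sham arrays, a change of 1.44 ± 0.15. Ret, the receptor for the niche factor GDNF, ran from -1.32 to -0.35 against -3.64 to -2.03, a change of 1.98 ± 0.22, or 0.97 above the filter level. Its partner Gfra1 changed by 0.59 ± 0.10, with arrays at -0.74 to -0.27 against -1.41 to -0.81. In all 3 genes the 6 arrays lay above every sham array, as in 0.834% of all genes. The 3 genes were named with results of these arrays known, so their separation is no added evidence. Sox3 and Ret also exceeded ablation alone (0.61, adjusted p = 0.0130, and 0.81, adjusted p = 0.0237), while Gfra1 differed from it by 0.19 (adjusted p = 0.401).

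Later germ cell stages were covered by fewer tested genes. Of all genes tested 5.28% were higher and 11.9% lower. Of 6 genes of differentiating spermatogonia 1 was higher, Sohlh1 (1.69 ± 0.44), of which 0.32 lay above the filter level. Its call was lost with the replicate number as a block (1.55, adjusted p = 0.0812) and without arrays 1 and 5 of the combined treatment together (1.54, adjusted p = 0.0540). Kit, the receptor that marks this stage, changed by -0.49 ± 0.32 (adjusted p = 0.365). Of 5 meiotic genes 2 were higher, with a median of 0.54. Sycp3, of the synaptonemal complex, changed by 1.10 ± 0.35. Above the filter level its change was 0.54 and not called (adjusted p = 0.211), and with the block it was 0.98 (adjusted p = 0.146). The call was also lost with only the control-described sham arrays (0.92, adjusted p = 0.116) and without array 1, 2 or 4 of the combined treatment (adjusted p = 0.0791, 0.0543 and 0.0663). Of 7 spermatid genes 0 were called. Prm1, the protamine that packs sperm DNA, ran from -6.11 to 5.78 in sham arrays with a median of -2.56, and from -6.09 to -2.43 with a median of -5.40 after the combined treatment. The change of -3.26 ± 1.27 was not called (adjusted p = 0.0850), but without sham array 4 it was (-3.59, adjusted p = 0.0487). Against ablation alone Prm1 was lower by -4.59 ± 1.33 (adjusted p = 0.0309), with the lower values under the filter level.

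Of 20 cell cycle genes tested, 12 were higher and 0 lower, while 5.28% of all genes tested were higher. The median of 0.59 ranged from 0.55 to 0.62 over 35 alternatives, while the count of higher genes ranged from 7 to 15. That count was 7 with only the irradiated-described sham arrays and 10 with the replicate number as a block. Mki67, a marker of dividing cells, ran from -0.38 to 0.22 against -2.37 to -0.50, a change of 1.26 ± 0.19. Ccna2, cyclin A2, changed by 1.59 ± 0.23 (0.88 above the filter level) and Ccnb1, cyclin B1, by 0.80 ± 0.11. Aurka, a mitotic kinase, changed by 0.35 ± 0.25 (adjusted p = 0.414). Which cells divided was not tested.

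**Figure D4:**
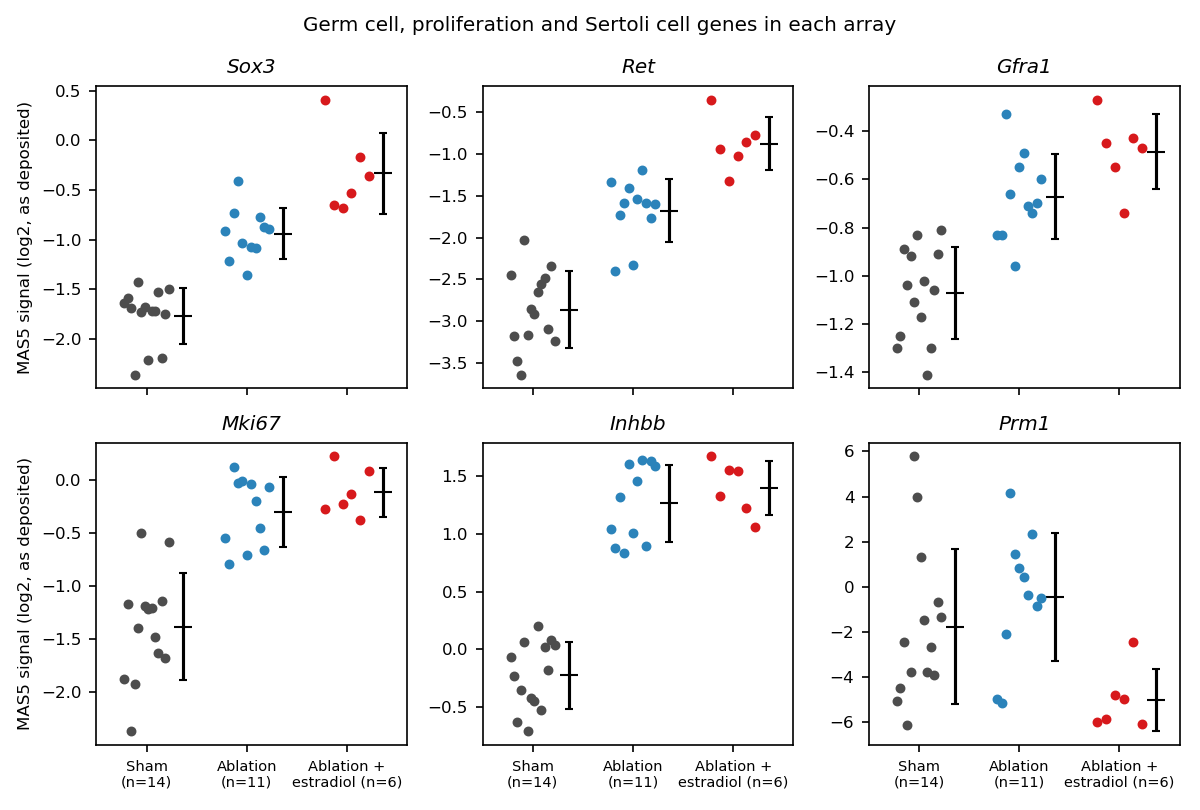
Signals (log2, as deposited) of 6 genes in each array of sham (n = 14), ablation (n = 11) and ablation with estradiol (n = 6), with black marks at the mean ± SD. Sox3, Ret, Gfra1, Mki67 and Inhbb of the combined treatment lie above every sham array, while Prm1 spreads from -6.11 to 5.78 in sham and stays at or below -2.43 in the combined treatment.

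Of 17 collagens 8 were lower and 0 higher, with a median of -0.38, while 11.9% of all genes tested were lower. Col1a1 ran from -1.04 to -0.04 against 0.99 to 2.24, a change of -2.44 ± 0.19 (-1.52 on another probe set), Col1a2 changed by -2.23 ± 0.12 and Col3a1 by -1.98 ± 0.09, all 3 being fibrillar collagens. Col4a5 and Col18a1, of basement membranes, changed by -0.13 ± 0.14 and 0.11 ± 0.13 (adjusted p = 0.622 and 0.682). Timp1, an inhibitor of matrix proteases, ran from 0.74 to 1.22 against 2.86 to 3.69, a change of -2.38 ± 0.12. Dpt, the matrix protein dermatopontin, changed by -2.24 ± 0.14 and lay 2.20-fold below ablation alone as well (adjusted p = 2.72e-06). Of 26 other matrix proteins 12 were lower and 4 higher, Aspn among them, though 2 were higher without array 4 of the combined treatment.

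Of 16 genes of peritubular myoid cells and smooth muscle 9 were lower and 0 higher. Tpm2, a tropomyosin, changed by -1.19 ± 0.14 and Actg2, a smooth muscle actin, by -1.08 ± 0.13. Acta2, the actin most used to mark these cells, changed by -0.38 ± 0.23 (adjusted p = 0.305). Of 15 macrophage genes 8 were lower and 0 higher, with a median of -0.51, while 11.9% of all genes tested were lower. Cd163, a scavenger receptor of resident macrophages, ran from -0.24 to 0.46 against 0.48 to 1.75, a change of -1.14 ± 0.15. Of 8 class II antigen presentation genes 3 were higher (Cd74, 0.51 ± 0.12, RT1-Da, 0.56 ± 0.13, and RT1-Bb, 0.38 ± 0.12), and all 3 calls were lost with only the irradiated-described sham arrays (adjusted p = 0.0677, 0.105 and 0.217). RT1-Bb also lost its call without array 1, 3 or 4 of the combined treatment (adjusted p = 0.0691, 0.0544 and 0.0995) and with the block (adjusted p = 0.0597).

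In the lists of the Igf system and of niche factors more genes were lower than higher. With only the irradiated-described sham arrays 0 were higher in either list. Of 13 Igf system genes 7 were lower and 1 higher, with a median of -0.74, while 11.9% of all genes tested were lower. Besides Igf1, the binding proteins Igfbp2 (-1.10 ± 0.10) and Igfbp5 (-0.97 ± 0.11) and the growth factor Igf2 (-0.95 ± 0.13) fell, while Irs2, a docking protein of the insulin receptor, rose by 0.70 ± 0.15 (adjusted p = 0.0540 with only the irradiated-described sham arrays). Igf1r, the receptor, changed by -0.01 ± 0.10 (adjusted p = 0.977). Of 16 niche factors 4 were lower and 2 higher (1 higher without array 2, 4 or 5 of the combined treatment). Cxcl12, a chemokine that holds stem cells in their niche, ran from 2.11 to 2.52 against 2.99 to 3.74, a change of -1.21 ± 0.11. Kitlg, the ligand of Kit, was higher by 0.36 ± 0.10 on the probe set used, but the call was lost without array 2 of the combined treatment (0.29, adjusted p = 0.0531) and with only the irradiated-described sham arrays (0.29, adjusted p = 0.223), and the mean of its probe sets gave -0.07.

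Of 17 immediate early genes, which answer a stimulus or handling within minutes, 4 were higher and 0 lower, and 0 were higher without array 6 of the combined treatment. Egr1, a zinc finger factor, ran from 1.61 to 3.86 against 0.78 to 1.83, and without that array its change was 0.57 (adjusted p = 0.0739). With only the irradiated-described sham arrays it was 1.00 (adjusted p = 0.0746). Of 18 glutathione and antioxidant enzymes 6 were lower, led by Mgst2 (-1.55 ± 0.10), and of 14 oxidative phosphorylation genes 3 were lower (1 without array 6 of the combined treatment), with 0 higher in either list. Of 4 tested genes listed for epididymis and efferent ducts 3 were lower, led by Lcn2 (-1.34 ± 0.11). Lcn2 also changed by -1.29 ± 0.09 in ablation alone against sham. Cst8 (-0.40 ± 0.12) lost its call in 7 of 35 alternatives. Whether duct tissue was taken along with the testis was not tested. Of 8 ribosomal protein genes and of 3 red blood cell genes 0 were called, while after quantile normalization 5 of the ribosomal genes were higher. Over the 37 lists, 191 of 450 tested genes were called, while of all genes tested 17.2% were called, 11.9% lower and 5.28% higher. Since the lists were chosen with earlier results of these data known, their share is no result about them.

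**Figure D5:**
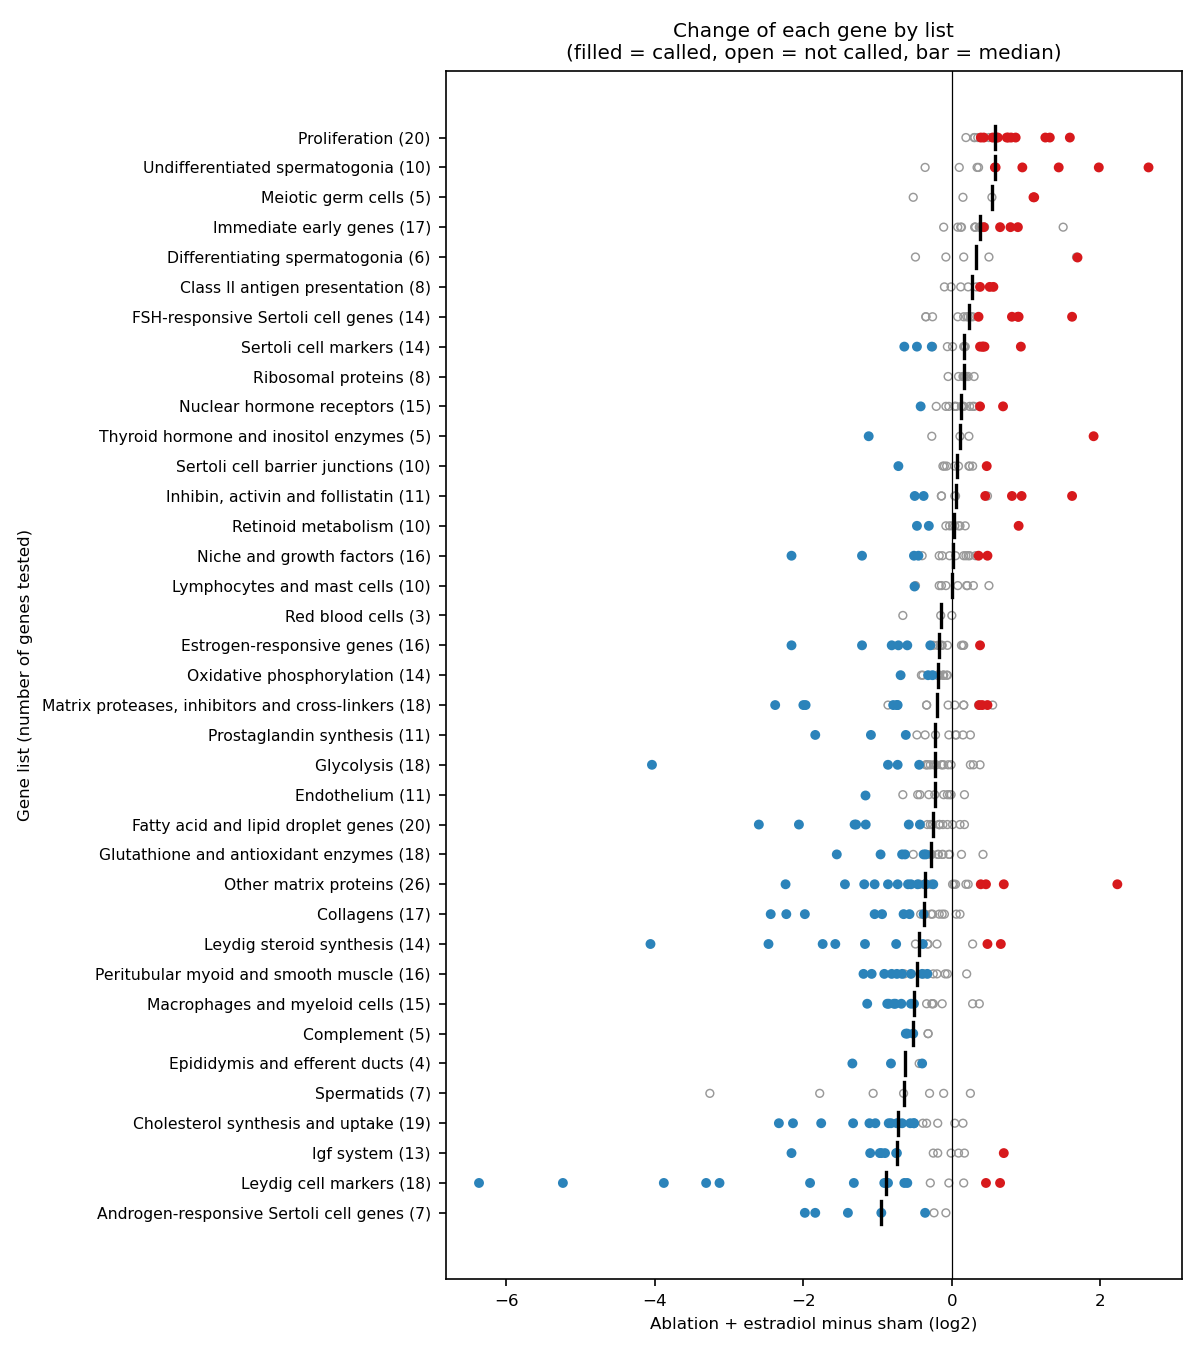
Change of each tested gene (log2, ablation with estradiol minus sham) in 37 lists, ordered by median, with the number of tested genes in brackets. Androgen-responsive Sertoli cell genes (median -0.95) and Leydig cell markers (-0.89) have the lowest medians, and proliferation (0.59) and undifferentiated spermatogonia (0.58) the highest.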

How the data were processed

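Total RNA of testis was hybridised to Affymetrix rat arrays, and the authors deposited MAS5 signals on a logarithmic scale, per the submitters' processing notes and the table itself. The version, scaling target and base of the logarithm are not given in the sources used here. The values were read as log2 and used as deposited, and every fold rests on that reading. MAS5 values of dim probe sets are noisy, so a probe set was kept where it exceeded the 40th percentile of its array in at least 6 arrays, which left 21269. The platform annotation gave 1 gene symbol to 20826 of 31042 non-control probe sets, several to 436 and none to 9780. Where a gene had several kept probe sets the one with the highest mean stood for it, which gave 11387 genes.

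All 31 arrays in 3 groups were fitted with limma 3.58.1 in R 4.3.3, with variances moderated along a trend, with 2-sided tests and the Benjamini-Hochberg adjustment across the kept probe sets. Called means an adjusted p under 0.05. The fit was tested on simulated data for this comparison. It recovered 34.7% of log2 changes of 0.5, 87.9% of those of 1 and 98.6% of those of 2. Of its calls 5.23% were false. A gene that was not called may therefore still have changed by about 0.5. P-values set a difference of group means against the spread between arrays within groups, and the number of arrays sets the precision. Whether this is a spread between single animals is not known, since the labels do not say if RNA was pooled. Alternatives changed the filter, scaling, probe set rule, model, arrays used and replicate block.

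Named genes are the 12 lowest and 12 highest called genes after raising values to the filter level, up to 4 called genes of each of 37 lists, and fixed genes of these pathways. Esr1 and Gdnf lay below the filter, and Fshr and Sox9 had no probe set named here. The members, lists and rules were chosen with earlier results of these data known, and genes named beside these rules were chosen after their values were seen. Promoter sequences came from RefSeq on GRCr8.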

Additional observations from a re-analysis of the deposited data

Results flagged for a closer look

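Among the 6 arrays of the combined treatment, 8 of 127 named genes had a highest or lowest array set far apart from the other 5, where chance sets about 1 in 20 groups apart. Array 5 gave 5 of them. C1r at 2.76 and C1s at 3.27, both proteases that start the complement cascade, were low there, and so was the tight junction gene Ocln at 1.16. In the same array the endothelial gene Plvap at -2.52 and Prm1 at -2.43 were high. In array 6, Egr1 was high at 3.86 and Mgst2 was low at 0.11. In array 3, Insl3 was low at -3.82, and without that array its change from sham was -6.02. Leaving out the array set apart ended the call of Egr1 (0.57, adjusted p = 0.0739) and of no other of these genes that had one.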

How the results depend on the processing

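The alternatives numbered 35 (15 other settings and 20 fits that leave out 1 array). Of 124 called genes named by the rule, 91 kept their call in every alternative that tested them and 33 lost it in at least 1. Some genes dropped out under the stricter filter, so that Ret, Ccna2, Ptgds and Acvr2b, among the 91, were tested in 34. The choice of sham arrays mattered most: with the 4 described as irradiated, 22 named calls were lost and 1702 probe sets were called (380 higher, 1322 lower), 1181 genes (253 higher), while fewer arrays enter that fit. Quantile normalization gave 1753 higher probe sets and 1202 higher genes. Leaving out 1 array gave 2540 to 3197 probe sets (619 to 937 higher, 1767 to 2357 lower), 1626 to 2016 genes (424 to 641 higher, 1102 to 1434 lower), 116 to 124 named calls and 176 to 200 list genes. Greb1 turned to 0.06 without estradiol arrays 1 and 5 (chosen after seeing the data), to 0.08 with the 4 irradiated-described sham arrays and, when 1 array was left out, ranged from -0.22 to 0.01 (without array 5), and Kitlg turned to -0.07 with the mean of its probe sets. The cause was not tested. Sham and combined-treatment arrays share replicate numbers, and the labels do not say what a number marks. Correlations of deviations were -0.0107 to 0.376, over 0.1 in 3 of 6 pairs, and 3 of the 6 arrays correlated best with the sham array of their own number, so pairing is unsettled. With the replicate number as a block 2349 probe sets and 1436 genes (508 higher, 928 lower) were called, 108 of the named genes among them.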

Other observations

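Where a called gene had further kept probe sets, these mostly pointed the same way: of 482 such genes, all other probe sets shared the direction in 403, and at least 1 other was called in 152. Probe sets without a gene symbol were called about as often as those with 1, at 13.2% of 5420 against 15.0% of 15494.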
